A study of Mus musculus with 8 samples.

Results

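The insulin-like growth factor (IGF) system was followed here through 10 genes in the mouse uterus: the ligands Igf1 and Igf2, the receptors Igf1r and Igf2r, and the binding proteins Igfbp2, Igfbp3, Igfbp4, Igfbp5, Igfbp6 and Igfbp7. These 10 are the members that carry 1 probe set each on the array whose gene annotation names that gene alone, out of 19938 genes so named. Of the 10, 9 were bright enough to be tested, meaning above the 40th percentile of the array on at least 4 of the 8 arrays, among 13039 tested genes. The tissue was whole uterus of C57BL/6 mice, an inbred strain, collected at 22 h of day 3 with the mating night as day 0, shortly before blastocysts attach. The pregnant group had 4 uteri from females mated with stud males, with blastocysts in the flushed horns and no blue dye reaction, the sign of attachment. The pseudopregnant group had 4 uteri from females mated with vasectomized males, which enter the same hormonal state without embryos. The type of male differed with the presence of embryos, so the effects of the mating and of the embryos cannot be told apart. Each array carried total RNA of 1 sample, titled as a biological replicate.

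IGF1 and IGF2 are small secreted peptides related to insulin that act through the tyrosine kinase receptor encoded by Igf1r and drive growth and survival. Igf2r encodes a different kind of receptor, which binds IGF2 and mannose 6-phosphate and carries its cargo to lysosomes, so that it removes IGF2 rather than passing on its signal. The binding proteins hold the ligands outside cells and either restrain them or lengthen their life. In the rodent uterus, stromal Igf1 is known as an estrogen-induced signal to the epithelium, and several binding proteins are known to change in the stroma when it decidualizes after attachment.

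Median intensities lay between 55.2 and 56.3, and correlations between arrays of a group between 0.984 and 0.994. The deposited values had already been equalised between arrays, so the even medians do not measure array quality. The first principal component held 46.1% of the variance, and pregnant replicate 2 (-26.7) and pseudopregnant replicate 1 (20.3) lay farthest out on it, with the other arrays between -6.6 and 9.3. All 7 markers of uterine identity were bright enough to be tested, among them the hormone receptors Pgr and Esr1. All 6 blastocyst markers lay below that brightness limit. Values below are log2 of the deposited intensities, and a value of 1 gene cannot be set against that of another, since each probe set has its own response. The precision is limited by the 4 arrays of each group.

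The windows just upstream of 4 members are shown first, because Igf1 is the central ligand and Igfbp3, Igfbp4 and Igfbp5 had, in that order, the largest difference above 0, the smallest p and the largest difference below 0. Each is the 250 bases before the RefSeq transcript start, read 5′ to 3′ along the gene, from the GRCm38.p6 assembly of the mouse genome. Capitals mark matches, on either strand, to any of 4 short motifs. The TATA box was searched as TATANA, with N for any base. The GC box bound by Sp1 proteins was searched as GGGCGG. The core element shared by retinoic acid receptors and estrogen receptors was searched as AGGTCA. The core element of progesterone and glucocorticoid receptors was searched as AGAACA.
Igf1, chr10:87860861-87861110, plus strand: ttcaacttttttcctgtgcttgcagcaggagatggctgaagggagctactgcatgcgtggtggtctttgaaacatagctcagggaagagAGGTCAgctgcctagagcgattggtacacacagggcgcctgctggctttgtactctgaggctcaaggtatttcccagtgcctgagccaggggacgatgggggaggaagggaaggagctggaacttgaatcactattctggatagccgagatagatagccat
Igfbp3, chr11:7213924-7214173, minus strand: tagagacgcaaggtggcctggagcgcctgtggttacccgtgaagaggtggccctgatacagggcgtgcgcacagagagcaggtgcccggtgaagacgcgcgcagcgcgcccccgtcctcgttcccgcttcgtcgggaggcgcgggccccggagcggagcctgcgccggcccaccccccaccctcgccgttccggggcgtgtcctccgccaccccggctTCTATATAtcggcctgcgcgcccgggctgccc
Igfbp4, chr11:99040994-99041243, plus strand: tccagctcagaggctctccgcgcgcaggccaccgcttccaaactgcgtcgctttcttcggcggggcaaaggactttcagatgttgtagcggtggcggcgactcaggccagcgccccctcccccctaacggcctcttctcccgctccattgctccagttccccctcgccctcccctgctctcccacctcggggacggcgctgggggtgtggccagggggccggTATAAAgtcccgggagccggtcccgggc
Igfbp5, chr1:72874866-72875115, minus strand: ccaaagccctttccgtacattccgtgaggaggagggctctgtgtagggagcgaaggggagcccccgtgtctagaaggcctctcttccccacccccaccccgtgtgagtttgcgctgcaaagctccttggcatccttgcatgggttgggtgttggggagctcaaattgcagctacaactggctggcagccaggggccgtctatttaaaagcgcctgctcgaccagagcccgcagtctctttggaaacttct

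The binding protein windows held TATA matches near the start for 2 of these genes, with overlapping matches that begin 32 and 30 bases upstream in Igfbp3 and a match that begins 28 bases upstream in Igfbp4. Of the other members only Igfbp6 held TATANA, with matches that begin 148 and 146 bases upstream. TATANA was found in 22.6% of all 32851 RefSeq windows of this length. The Igf1 window held an AGGTCA match 161 bases upstream, a motif present in 14% of all windows. AGGTCA also occurred upstream of Igf1r, Igf2r and 1 of the 4 Igf2 starts, and in none of the binding protein windows. GGGCGG, in 32.7% of all windows, occurred for Igf2, Igf1r, Igf2r, Igfbp2 and Igfbp7, and AGAACA, in 16.1%, for Igf2 and Igfbp2. The Igfbp5 window held no match to the 4 motifs as searched, and variant forms, such as other spellings of a TATA box, were not searched. These are matches of letters and not measured binding sites. In the RefSeq gene order Igfbp2 and Igfbp5 are neighbours on chromosome 1, and Igfbp3 lies beside Igfbp1 on chromosome 11, where Igfbp4 also lies.

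Setting pregnant beside pseudopregnant uterus asks whether the IGF system differs between them before attachment, where both the embryos and the type of male differ. None of the 9 tested members rose or fell in limma's test, in which a gene was called at an adjusted p under 0.05 (0 of 9, with adjusted p of 0.20 and above). At an unadjusted p under 0.05 there was 1 of 9, Igfbp4. Over the array, 1.82% of the 17494 probe sets tested were called, and 23.7% had an unadjusted p under 0.05. The members' differences (pregnant minus pseudopregnant) had a median of 0.04 and lay between -0.22 for Igfbp5 and 0.57 for Igfbp3, against a median of 0.00 over all tested genes. Ignoring sign, their median difference was 0.087, beside 0.090 over all tested genes. Groups did not overlap for 1 of 9 members, Igfbp3, which was higher on every pregnant array, and 14.6% of all probe sets tested had groups that did not overlap.

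**Figure D1:**
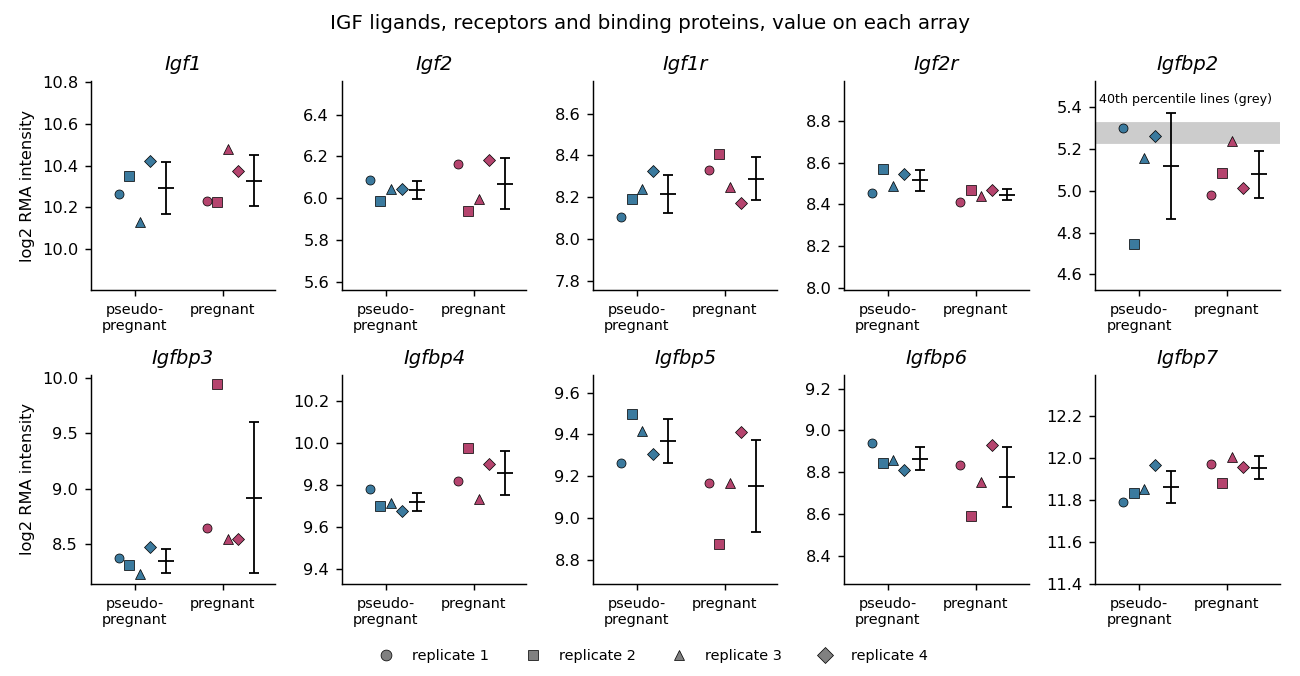
Log2 intensity of each of the 10 genes (vertical axis) on the 8 arrays, with a marker shape for each replicate number and bars for mean ± SD of each group (n = 4). Each panel has its own scale, which spans 1 log2 unit except for Igfbp3; groups overlap in every panel but that of Igfbp3, and Igfbp2 lies within or under the grey band of the brightness limits.

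Igf1 was measured at 10.23, 10.23, 10.48 and 10.38 in pregnant replicates 1 to 4 and at 10.26, 10.35, 10.13 and 10.42 in pseudopregnant replicates 1 to 4. The highest and the lowest value came from opposite groups, and the groups overlapped over most of their range. The means were 10.33 ± 0.12 and 10.29 ± 0.13 (SD, n = 4 each), a difference of 0.04 ± 0.080 (SE; limma adjusted p = 0.81). The 95% interval of the difference, -0.14 to 0.21, corresponds to folds between 0.905 and 1.16. A change of Igf1 mRNA larger than that in the whole tissue was therefore outside the interval, although an opposite shift in separate cell layers would not be seen in whole uterus. In such bulk samples a smaller number of expressing cells and less RNA per cell cannot be told apart.

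Igf2, an imprinted gene best known for growth of the fetus and placenta, was measured at 6.16, 5.94, 6.00 and 6.18 in the pregnant and at 6.09, 5.99, 6.04 and 6.05 in the pseudopregnant replicates. The 4 pseudopregnant values all lay inside the pregnant range. The difference was 0.03 ± 0.066 (SE; limma adjusted p = 0.81), with a 95% interval of -0.12 to 0.18. Both ligands thus had intervals that reach no more than 1.16-fold upward. Igf2 lay not far above the brightness limits, which were between 5.23 and 5.32. The processing of the arrays compresses changes near background, so the fold of Igf2 may be understated. The sign of both small differences depended on single arrays, with Igf1 at -0.01 without pregnant replicate 3 and -0.02 without pseudopregnant replicate 3, and Igf2 at -0.0010 and -0.0072 without pregnant replicates 1 and 4.

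Igf1r, the signalling receptor, was measured at 8.33, 8.41, 8.25 and 8.17 in the pregnant and at 8.11, 8.19, 8.24 and 8.33 in the pseudopregnant replicates. The groups overlapped, and the difference was 0.07 ± 0.068 (SE; limma adjusted p = 0.54) with a 95% interval of -0.08 to 0.23. It was 0.035 and 0.037 without pregnant replicate 2 and pseudopregnant replicate 1, and 0.11 without replicate 4 of either group. Igf2r, the clearing receptor, was measured at 8.41, 8.47, 8.44 and 8.47 against 8.46, 8.57, 8.49 and 8.54. Its groups overlapped only through pseudopregnant replicate 1, the lowest of its group. The difference of Igf2r was -0.07 ± 0.049 (SE; limma adjusted p = 0.42), with an interval of -0.18 to 0.04. The pregnant arrays agreed closely on Igf2r, with an SD of 0.027, the smallest of any member in either group.

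Among the binding proteins the differences were wider apart. Igfbp3 encodes the main carrier of IGFs in the blood and is also made locally in tissues. It was measured at 8.64, 9.94, 8.54 and 8.55 in pregnant replicates 1 to 4 and at 8.37, 8.31, 8.22 and 8.47 in pseudopregnant replicates 1 to 4. Every pregnant value lay above every pseudopregnant value, and pregnant replicate 2 stood far above all other arrays. Groups that did not overlap and were higher in the pregnant uterus made up 9.23% of all probe sets tested, and 5.38% did not overlap and were lower. The means were 8.92 ± 0.68 and 8.35 ± 0.11 (SD, n = 4 each), 1.49-fold higher in the pregnant group, but the difference of 0.57 ± 0.27 (SE) did not pass (limma adjusted p = 0.23; 95% interval -0.03 to 1.18). Without pregnant replicate 2 the difference was 0.23, with a 95% interval of 0.07 to 0.39 (limma adjusted p = 0.13). Pregnant replicates 1, 3 and 4 thus showed a smaller and more even difference than the group mean.

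Igfbp4, which encodes a binding protein that restrains IGF until it is cut by the protease PAPP-A, was measured at 9.82, 9.98, 9.73 and 9.90 in the pregnant and at 9.78, 9.70, 9.72 and 9.68 in the pseudopregnant replicates. Pregnant replicate 3 lay within the pseudopregnant range and the other 3 pregnant arrays lay above it. The difference was 0.14 ± 0.062 (SE; limma adjusted p = 0.20, and 0.046 before adjustment), a fold of 1.10 with a 95% interval of 1.00 to 1.21. Without single arrays it stayed between 0.10 and 0.18.

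Igfbp5, whose product binds extracellular matrix as well as IGFs, was measured at 9.17, 8.87, 9.17 and 9.41 in the pregnant and at 9.26, 9.50, 9.42 and 9.31 in the pseudopregnant replicates. Here pregnant replicates 1, 2 and 3 lay below all pseudopregnant arrays and pregnant replicate 4 lay among them. The difference was -0.22 ± 0.10 (SE; limma adjusted p = 0.24), with a 95% interval of -0.45 to 0.02. It was -0.12 without pregnant replicate 2 and -0.30 without pregnant replicate 4.

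Igfbp6, a binding protein that prefers IGF2, was measured at 8.83, 8.59, 8.75 and 8.93 against 8.94, 8.85, 8.86 and 8.81. The difference of -0.09 ± 0.073 (SE; limma adjusted p = 0.50; 95% interval -0.25 to 0.08) lay within overlapping groups. It was -0.025 without pregnant replicate 2 and -0.14 without pregnant replicate 4. Igfbp7, a relative that binds IGFs weakly and is abundant in vessels and stroma, was measured at 11.97, 11.88, 12.01 and 11.96 against 11.79, 11.84, 11.85 and 11.97. All but 1 of the pseudopregnant values lay below the pregnant range, the exception being replicate 4. The difference was 0.09 ± 0.056 (SE; limma adjusted p = 0.34), with an interval of -0.03 to 0.22.

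Igfbp2 was the member left untested in the main comparison. It was measured at 4.98, 5.08, 5.24 and 5.01 in the pregnant and at 5.30, 4.75, 5.16 and 5.26 in the pseudopregnant replicates. On 0 of 8 arrays did it exceed the 40th percentile of that array, which lay between 5.23 and 5.32. These values give no size of a difference, and the groups overlapped. Its chromosomal neighbour Igfbp5 was above that limit on all 8 arrays.

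**Figure D2:**
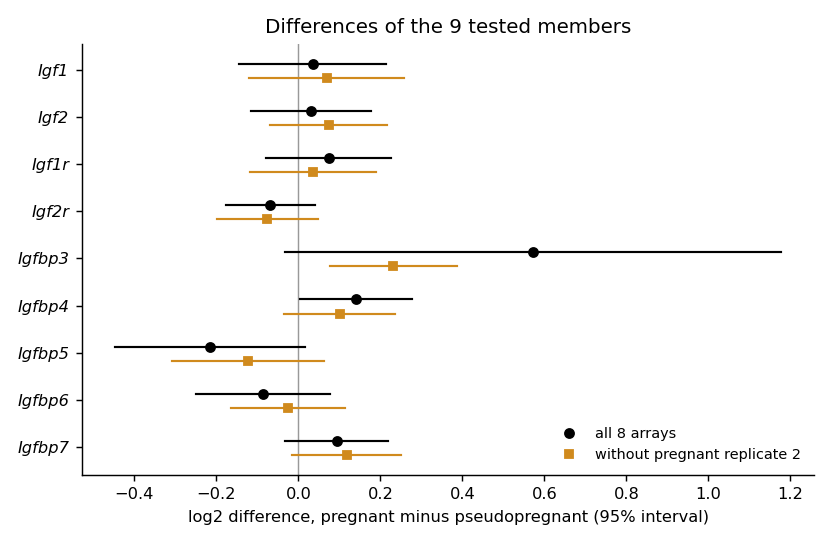
Log2 difference (pregnant minus pseudopregnant, horizontal axis) of the 9 tested genes with 95% intervals from limma, for all 8 arrays (black circles) and without pregnant replicate 2 (orange squares). With all arrays 8 of the 9 intervals include 0, and that of Igfbp4 (0.0028 to 0.28) does not. Without pregnant replicate 2 the interval of Igfbp4 (-0.03 to 0.24) includes 0. The interval of Igfbp3 narrows from -0.03 to 1.18 with all arrays to 0.07 to 0.39 without that array.

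Pregnant replicate 2 supplied more of the members' extreme values than any other array. Of the 18 highest and lowest values over the 9 tested members, it supplied 6, against 1 to 3 for any other array. The share of such values over all tested genes was not counted. This array also lay farthest out on the first principal component (-26.7). It had the highest values of Igf1r, Igfbp3 and Igfbp4 and the lowest of Igf2, Igfbp5 and Igfbp6. Igfbp3 on this array lay 1.36 above the mean of the other 3 pregnant arrays, a fold of 2.57, while those 3 spanned 0.10. A distance at least as large upward was reached by 18 of 13039 tested genes, Igfbp3 included. Igfbp5 lay 0.37 below the mean of its 3 companions, and 3.34% of the tested genes lay at least as far below theirs. For Igf1 and Igf2r the distances were -0.14 and 0.03. Over the members, the median SD within the pregnant group was 0.12 and within the pseudopregnant group 0.075, beside 0.091 and 0.093 over all tested genes.

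**Figure D3:**
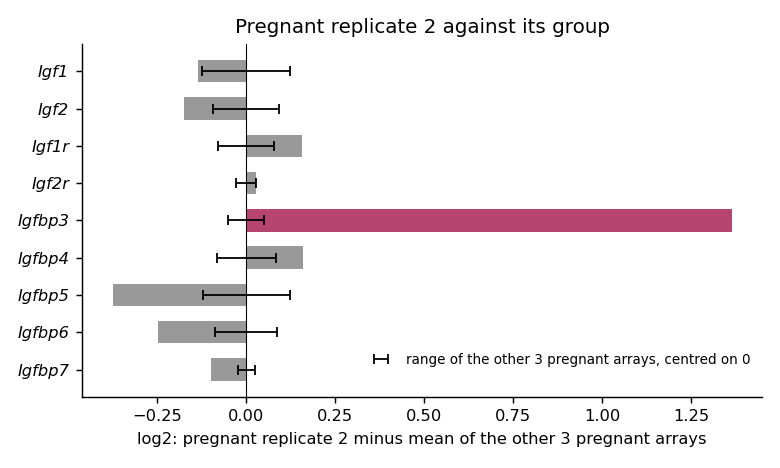
Bars give the log2 value of pregnant replicate 2 minus the mean of the other 3 pregnant arrays for each tested member, and whiskers give the range of those 3 arrays centred on 0. The bar of Igfbp3 reaches 1.36, and that of Igfbp5 is the longest below 0, at -0.37.

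Markers of other cell types were read beside these values. Pregnant replicate 2 also had the lowest mean of the 8 tested epithelial markers, 7.29 against 7.58 to 7.95 on the other arrays, and the highest mean of the 5 tested natural killer cell markers, 7.44 against 5.77 to 7.06. Its means of the 6 stromal and 7 smooth muscle markers were also the highest of all arrays (10.81 and 10.53). The stromal mean was close to that of pregnant replicate 4 (10.79), and the next smooth muscle mean was 10.45. Among the stromal markers Pdgfra and Dcn were highest on pregnant replicate 2, while Col1a1, Col3a1, Lum and Vim were not. The smooth muscle myosin gene Myh11 was lowest on it (10.04). Its endothelial mean was the lowest of all arrays, 8.29 against 8.40 to 8.59, although the endothelial marker Cldn5 was highest on it (8.19). Its macrophage mean was the highest (7.41), close to that of pregnant replicate 4 (7.40). Of the macrophage markers, 6 of 8 tested rose, and their mean lay between 7.17 and 7.41 on the pregnant and between 6.89 and 6.95 on the pseudopregnant arrays. Of the natural killer cell markers, 4 of 5 rose, with means of 6.63 to 7.44 and 5.77 to 6.37. Over the array 1.41% of the probe sets tested rose. The macrophage marker Cd163 and the natural killer cell marker Klrb1c lay below the brightness limit. Of the epithelial and the endothelial markers 0 of 8 and 0 of 7 changed (limma; before adjustment 2 of each had a p under 0.05, all lower), and 7 of 8 and 7 of 7 had differences below 0. Differences below 0 were found for 6461 of all 13039 tested genes. The part of these marker shifts in the values of Igfbp3, Igfbp4 and Igfbp5 was not tested.

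By likeness over the 8 arrays, taken as Pearson's r of the log2 values, the 5 genes closest to Igf1 were Mbnl2 (0.967), Mir337 (0.924), Adcy2 (0.912), Nsun5 (0.912) and Dapp1 (0.909). These profiles follow the spread of Igf1 within groups, and the group difference of Mbnl2, which encodes a splicing regulator, was 0.00059. The 5 closest to Igfbp4 were Skp2 (0.970), Lypd6 (0.964), Slc12a2 (0.960), Dnajc3 (0.959) and Atp5g1 (0.948). Skp2, a ubiquitin ligase subunit that removes cell cycle inhibitors, differed by 0.32 between the groups (limma adjusted p = 0.089). These values of r were picked as the highest among 13039 genes over 8 points, and they are given as descriptions.

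The rest of the pathway was followed in 5 lists that hold 83 genes, of which 60 were tested. Across them 1 gene rose and 0 fell (limma), and before adjustment 5 had a p under 0.05 with a positive and 6 with a negative difference. Over the whole array, 1.41% of the probe sets tested rose and 0.412% fell. The median difference of the 60 genes was -0.02, beside 0.00 over all tested genes.

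Among the genes of growth hormone and prolactin input and of imprinted partners, 1 of 12 tested rose, with a list median of -0.07. This was Mest, an imprinted gene of the hydrolase family expressed from the paternal copy. It was measured at 8.28, 8.39, 8.001 and 8.30 in the pregnant and at 7.55, 7.78, 7.41 and 7.86 in the pseudopregnant replicates, with no overlap. The difference was 0.60 ± 0.11 (SE; limma adjusted p = 0.036), a fold of 1.51. The call of Mest ended without pregnant replicates 1, 2 or 4 (adjusted p = 0.073, 0.065 and 0.077), without pseudopregnant replicates 1, 2 or 3 (adjusted p = 0.099, 0.056 and 0.078) and without the brightness filter (adjusted p = 0.064). Without single arrays the difference of Mest stayed between 0.52 and 0.68. Other members did not pass. Cish, a feedback inhibitor induced through STAT5, differed by -0.23 (limma adjusted p = 0.12), the growth hormone receptor Ghr by 0.15 (0.27) and the signal transducer Stat5b by -0.09 (0.29). The groups of Stat5b did not overlap either, with a highest pregnant value of 6.871 and a lowest pseudopregnant value of 6.872. This makes 1 higher and 1 lower of the 12 tested in this list, against 14.6% of all probe sets tested. Without pseudopregnant replicate 1 the difference of Ghr was 0.096. The imprinted genes Dlk1, Plagl1 and Cdkn1c differed by 0.13, 0.12 and -0.09.

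In the receptor signalling list, 0 of 27 tested genes passed (limma), the median was 0.00, and p before adjustment was under 0.05 for 3 positive and 4 negative differences. The closest to the threshold were Rheb, the small GTPase that switches on mTOR, at 0.34 ± 0.079 (SE; limma adjusted p = 0.055), Irs1, the adaptor that binds the activated IGF and insulin receptors, at -0.27 ± 0.063 (0.058), and Tsc1, part of the complex that holds Rheb inactive, at -0.20 ± 0.052 (0.067). Rheb lay between 8.02 and 8.34 on the pregnant and between 7.71 and 7.94 on the pseudopregnant arrays. Irs1 lay between 7.74 and 7.99 against 8.07 and 8.21, and Tsc1 between 7.38 and 7.54 against 7.61 and 7.67. None of these 3 genes had groups that overlapped. The kinase Akt1 (0.17), the insulin receptor Insr (-0.16) and the receptor-binding adaptor Grb10 (0.17) had groups that did not overlap as well, which makes 6 of 27 in this list, 3 higher and 3 lower, against 14.6% of all probe sets tested. Their limma adjusted p were 0.095, 0.13 and 0.18.

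Of the proteases that cut binding proteins or ligands, with their inhibitors, 0 of 10 tested passed (limma; before adjustment 1 positive and 0 negative differences had a p under 0.05), with a list median of -0.03. Ide, the insulin-degrading enzyme, was measured at 8.20, 8.74, 7.97 and 8.81 in the pregnant and at 7.54, 8.19, 7.67 and 7.60 in the pseudopregnant replicates. The groups overlapped through pseudopregnant replicate 2, and the difference of 0.68 ± 0.20 (SE) did not pass (limma adjusted p = 0.091). Pappa, the protease of Igfbp4, differed by -0.05 (limma adjusted p = 0.73), and its inhibitors Stc1 and Stc2 by -0.22 (0.40) and 0.02 (0.93). Adamts1 differed by -0.22 (0.31) and the protease Htra1 by -0.09 (0.39). Adamts1 was at -0.096 without pregnant replicate 2.

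Of the relatives of the binding proteins and the carriers, 5 of the 12 analysed were bright enough to be tested, all of the CCN family of matrix proteins, and 0 of 5 passed (limma; before adjustment 0 positive and 1 negative difference had a p under 0.05), with a median of -0.05. Ccn5 differed by -0.19 (limma adjusted p = 0.17), Ccn2 by -0.28 (0.48) and Ccn4 by 0.08 (0.48). Single arrays moved Ccn2, to -0.050 without pregnant replicate 2, -0.17 without pseudopregnant replicate 3 and -0.43 without pregnant replicate 3. Ccn4 was at 0.039 without pregnant replicate 4, 0.056 without pseudopregnant replicate 3 and 0.13 without pseudopregnant replicate 2. Igfbp1, Igfals, which encodes the partner of IGFBP3 in serum, and the RNA-binding proteins Igf2bp1 and Igf2bp3 lay below the brightness limit. Of the mannose 6-phosphate sorting genes, which serve the same lysosomal route as Igf2r, 0 of 6 passed (limma; before adjustment 0 had a p under 0.05), and their differences lay between -0.05 and 0.11 for Gnptab, the enzyme that builds the mannose 6-phosphate tag.

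**Figure D4:**
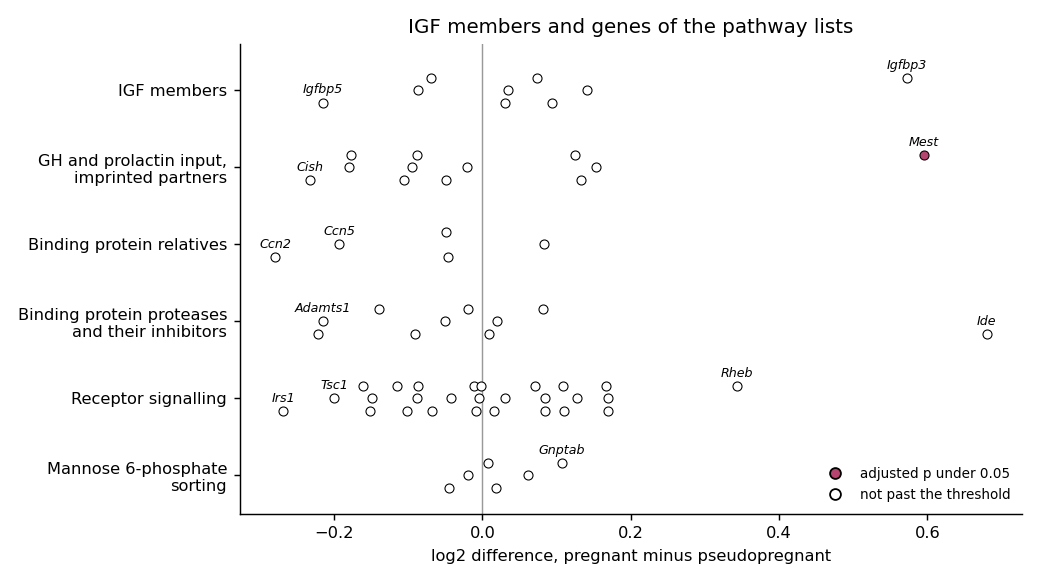
Log2 differences (pregnant minus pseudopregnant, horizontal axis) of the tested IGF genes and of the tested genes of the 5 pathway lists, 1 point per gene, filled where the limma adjusted p is under 0.05. Mest, at 0.60, is the 1 filled point; Igfbp3 (0.57) and Ide (0.68) lie about as far to the right and are open, as is Rheb (0.34).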

How the data were processed

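The authors deposited probe set intensities on a linear scale for 8 arrays, made with RMA, per the submitters' processing notes; RMA corrects background, equalises distributions between arrays and summarises probes. It compresses changes near background. Its software and version: not given in the sources used here. The log2 scale was taken here. Of 35556 rows, 6612 in the leading block of consecutive identifiers without genes were left out as controls. Probe sets were kept where at least 4 of 8 arrays exceeded the 40th percentile of their array, which left 17494, 14328 of them with 1 symbol. A gene was represented by its probe set with the highest mean over 8 arrays. Groups were compared with lmFit and eBayes (limma 3.58.1, R 4.3.3), two-sided, adjusted by Benjamini-Hochberg over the 17494. The code was tested on simulated data. Figures were made with matplotlib 3.10.9. No batch was tested, since none is named by the labels.

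Members and lists were chosen with earlier results of these data known. Named were all members, list genes past the threshold and the next 3 by p, the 5 genes most like Igf1 and like the member with the smallest p, marker genes where a result turned on them, and any gene with an outlying array; further names were added after their values were seen. Listed genes without a probe set of 1 symbol were not analysed here. RefSeq promoter sequences (GRCm38.p6) matched 10 of 10 members.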

Additional observations from a re-analysis of the deposited data

Results flagged for a closer look

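In 25 tested genes (the members and the pathway genes named by rule), each group of 4 arrays was searched for a value far from the other 3. Chance flags about 1 in 20 groups, and 2 of 50 groups held such a value. Igfbp3 in pregnant replicate 2 was at 9.94, while the nearest pregnant array was at 8.64 and the farthest at 8.54. Gga3, a lysosomal sorting adaptor, was at 7.41 in pregnant replicate 4, against 7.32 for the nearest and 7.31 for the farthest array of its group.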

How the results depend on the processing

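Of the members, 0 were called under any of 19 alternatives. Without the brightness filter all 10 were tested, Igfbp2 among them. For the 9 members of the main comparison the smallest limma adjusted p was 0.12 (Igfbp5 without pregnant replicate 4). Igf2r, Igfbp3, Igfbp4, Igfbp5 and Igfbp7 kept their direction under all 19. The direction turned in 7 of 170 member results, which leave out Igfbp2. These were Igf1 with cyclic loess (-0.0019) and without pregnant (-0.015) or pseudopregnant (-0.018) replicate 3, Igf2 without pregnant replicate 1 (-0.0010) or 4 (-0.0072), and, without pregnant replicate 2 and pseudopregnant replicate 1 together, an alternative chosen after seeing the data, Igf1r (-0.0016) and Igfbp6 (0.00067). With the stricter filter Igf2 was not tested.

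The count over all probe sets was 319; it was 54 without the filter, 708 with a variance trend and robust estimation, 48 without both of those arrays and 40 to 235 without single arrays. Leaving out single arrays moved Igf1 between -0.018 and 0.079 and Igf2 between -0.0072 and 0.074. No consistent pairing by replicate number was seen (correlations of same-numbered deviations of 0.24, 0.016, -0.10 and 0.044), though these values cannot exclude one. Pregnant replicates 1 and 4 and pseudopregnant replicate 1 correlated best with the array of their own number, the other arrays with another. With the replicate number as a block 174 probe sets and 0 members were called. The count in the growth hormone and imprinted list (1) was 0 without the filter and without both arrays, and 0 to 1 without single arrays. In the receptor signalling list (0), 2 genes were called with the stricter filter and with the variance trend (Rheb and Irs1), and 1 with repeated quantile normalization, cyclic loess or array weights (Irs1) and with an offset before log2 (Rheb). The adjusted p of Irs1 ranged from 0.036 to 0.11 and that of Rheb from 0.041 to 0.17. The cause of these shifts was not tested. Brightness limits Igfbp2, whose level is not above the limit on any array.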

Other observations

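The 18 genes that stood at least as far above their group as Igfbp3 in pregnant replicate 2, chosen after the values were seen, were led by the proton pump subunit Atp6v0d2 (3.07 above the other 3 pregnant arrays), the gland protease Prss28 (2.99), the peptide Guca2b (2.60), the gland protease Prss29 (2.59) and Sectm1b (2.28). The growth factor Bmp2 lay 1.98 above. On the other 3 pregnant arrays the means of Atp6v0d2, Prss28, Bmp2 and Igfbp3 were 1.90, 1.04, 0.49 and 0.23 above the pseudopregnant mean. Those of Sectm1b and Spink1 were near it, at 0.022 and 0.00072. Inmt, 1.85 above its companions in pregnant replicate 2, was at -0.46 on this measure, Agr2 at -0.086 and Fam13a at -0.059. The rest of the 18 lay above the pseudopregnant mean.

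The genes whose profile over the 8 arrays was closest to that of Igfbp3, also looked up after the values were seen, were the endothelin receptor Ednrb (r = 0.980), the transcription factor Runx1 (0.979), Ccdc77 (0.977), Cyp2f2 (0.976) and Olfm1 (0.976). Without pregnant replicate 2 these values were 0.635, 0.789, 0.582, 0.606 and 0.566, so much of the likeness rests on that array.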
